A study of Arabidopsis thaliana with 6 samples.

Results

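UDP-glycosyltransferases (UGTs) are the enzymes that move a sugar from a UDP-sugar, most often UDP-glucose, onto small molecules such as flavonols, glucosinolate precursors, phenolic acids, sterols and plant hormones. The added sugar makes the molecule more soluble, changes its activity, and lets it be stored in the vacuole or exported. Arabidopsis has a large UGT family whose names give a family number, a subfamily letter and a gene number, and leaf trichomes are known to hold flavonoids and sinapate esters, both of which are made with UGTs. The genes followed here were those whose own probe set the platform annotation assigns to 1 gene with a symbol that starts with UGT (47 genes), or whose reference description names a UDP-glycosyltransferase or UDP-glucosyl transferase (3 genes), together with UGT74C1 (AT2G31790), which the tables list only by its locus. This gave 51 genes with 1 probe set each, of the 13356 genes that at least 1 probe set named alone. Descriptions were read from the synonyms in a reference gene table, so a gene described in this way only elsewhere was missed. The rule of the choice used names and descriptions and no measured value, though it was set with earlier results of these data known.

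The data were 6 Affymetrix arrays of total RNA from trichomes, 3 from the gtl1-1 mutant and 3 from wild type, labelled as biological replicates. GTL1, a transcription factor of the trihelix family, is known to restrain the late growth of trichomes, and gtl1-1 is a mutant allele of it. All plants were grown for 3 weeks at 22 °C in continuous light on plates with Murashige and Skoog salts and 1% sucrose, and trichomes were pulled with forceps from rosette leaves, the fifth and the sixth. The comparison asks whether UGT transcripts in trichomes depend on the genotype, and in such samples fewer cells of a type and less RNA per cell cannot be told apart.

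Values were log2 expression estimates between 2.14, the floor of the data, and 15.5, with array medians between 5.48 and 5.57, and arrays of a genotype correlated at Pearson's r between 0.992 and 0.996 across probe sets. Among trichome genes, SIM, an inhibitor of cyclin-dependent kinases, lay between 11.43 and 12.29 in mutant and between 11.49 and 11.78 in wild-type trichomes, and its log2 change was 0.12. TRY, which holds back trichome formation in neighbouring cells, averaged 6.62 ± 1.00 in mutant and 7.61 ± 0.53 in wild-type trichomes (SD, n = 3 each), with overlapping values. GIS, which promotes trichome initiation, read between 5.86 and 6.62 in mutant and between 5.34 and 5.49 in wild-type trichomes, without overlap, and none of these 3 markers was called. They were the measured ones of 9 listed trichome markers, and GL1 and GL2 were not analysed here. Photosynthesis genes were strong as well: the mean of 5 markers lay between 11.89 and 12.16 on the mutant arrays and between 11.94 and 12.65 on the wild-type arrays. The annotation assigned 0 probe sets to GTL1, so the genotypes rest on the labels.

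Most UGT genes lay in the dim range of the array. A probe set was tested where at least 3 of its 6 values exceeded the 40th percentile of the array they came from (3.51 to 3.6). By that filter 20 of the 51 UGT genes (39.2%) were tested, against 55.3% of all probe sets that name 1 gene. That difference in shares was not tested. Of the 20 tested genes, 19 passed the 40th percentile on all 6 arrays, and UGT84A1 on 3. The other 31 genes lay at or below it on every array, with no value above 3.52. Among these, 26 had both genotype means within 0.5 log2 units of the floor, and 18 stood at the floor (within 0.005) on all 6 arrays. GCRMA, the method behind the values, compresses dim probe sets onto that floor, which hides differences below it. In the fit with no filter 0 of the 31 dim genes were called by limma, where 8 of all 22746 probe sets were, and no change exceeded 0.19 log2 units. The 18 genes at the floor could not show a change in that fit, so it says nothing about them.

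**Figure D1:**
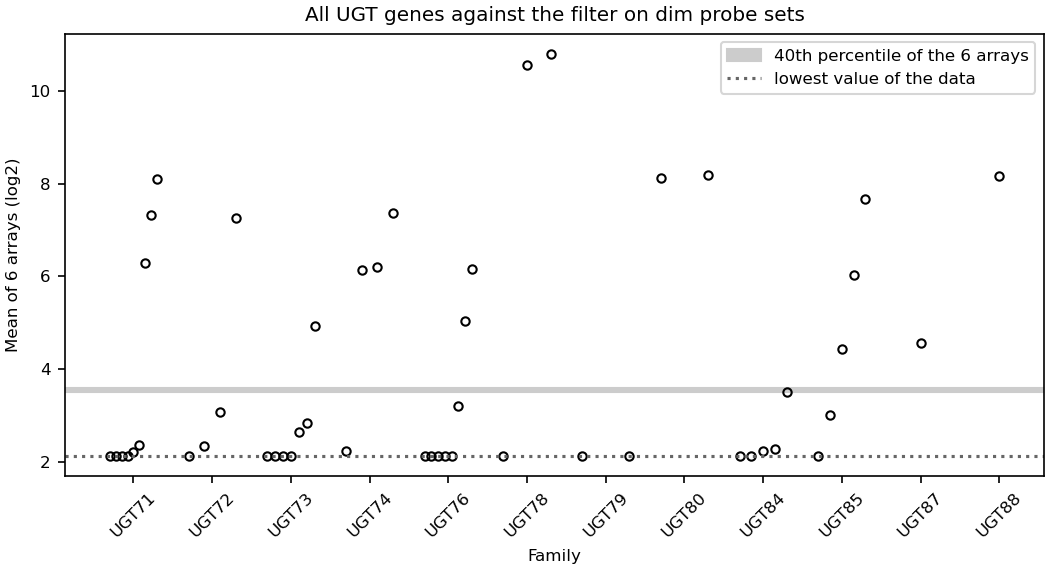
Mean log2 value over the 6 arrays of each of the 51 UGT genes, by family, with 1 circle per gene. The grey band spans the 40th percentiles of the arrays (3.51 to 3.6) and the dotted line is the lowest value of the data (2.14). Every gene of UGT80, UGT87 and UGT88 lies above the band and both UGT79 genes lie at the floor. Heights of different probe sets are not comparable as transcript amounts.

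The dim and bright genes were spread over the families. Both UGT80 genes, the single UGT87 and UGT88 genes, 3 of 4 UGT74 genes, 2 of 3 UGT78 genes and 3 of 5 UGT85 genes were tested. In contrast 3 of 9 UGT71, 2 of 8 UGT76, 1 of 7 UGT73, 1 of 4 UGT72, 1 of 5 UGT84 and 0 of 2 UGT79 genes were tested. The genes at the floor on all 6 arrays included UGT78D3, which adds arabinose to flavonols, UGT79B1, which adds xylose to anthocyanins, and UGT79B6, which extends flavonol glucosides in pollen. They also included UGT72E3, of the monolignol glucosyltransferases, UGT76B1, which glucosylates isoleucic and salicylic acid, and UGT84B1, which makes auxin glucose esters. None of the 5 measured genes in the list for stress and xenobiotic response (UGT73B4, UGT73B5, UGT76D1, UGT76E11 and UGT76E12) was tested, and UGT76E11 came nearest, between 3.02 and 3.43 in mutant and between 2.94 and 3.52 in wild-type trichomes.

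Among the 20 tested genes the differences between genotypes were small. Log2 changes are mutant minus wild type throughout, given with their standard error (SE) over n = 3 arrays per genotype. The limma fit over all 13682 tested probe sets called 0 of the 20 at an adjusted p under 0.05, where it called 126 probe sets (0.921%, 81 higher and 45 lower in the mutant). At that background a count of 0 among 20 genes is near what the array as a whole shows. A fit with the replicate number as a block called 68 probe sets and again 0 UGT genes. An unadjusted limma p under 0.05 was reached by 3 UGT genes (15%), against 14.9% of all tested probe sets. Of these, 1 was higher and 2 were lower in the mutant, where 7.8% and 7.15% of all tested probe sets were. The genotypes were fully separated, with no overlap of their 3 values each, at 4 UGT genes (20%), against 20.9% of all tested probe sets. The mutant was the higher one at 2 of them and the lower one at 2, against 10.8% and 10.1% of all tested probe sets. The median log2 change was -0.02 over the 20 genes and -0.01 over all tested probe sets, and the median size of the change was 0.24 against 0.19. The changes ran from -0.59 (UGT88A1) to 0.40 (UGT71C4). No UGT gene changed by 2-fold or more, as 2.43% of all tested probe sets did.

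**Figure D2:**
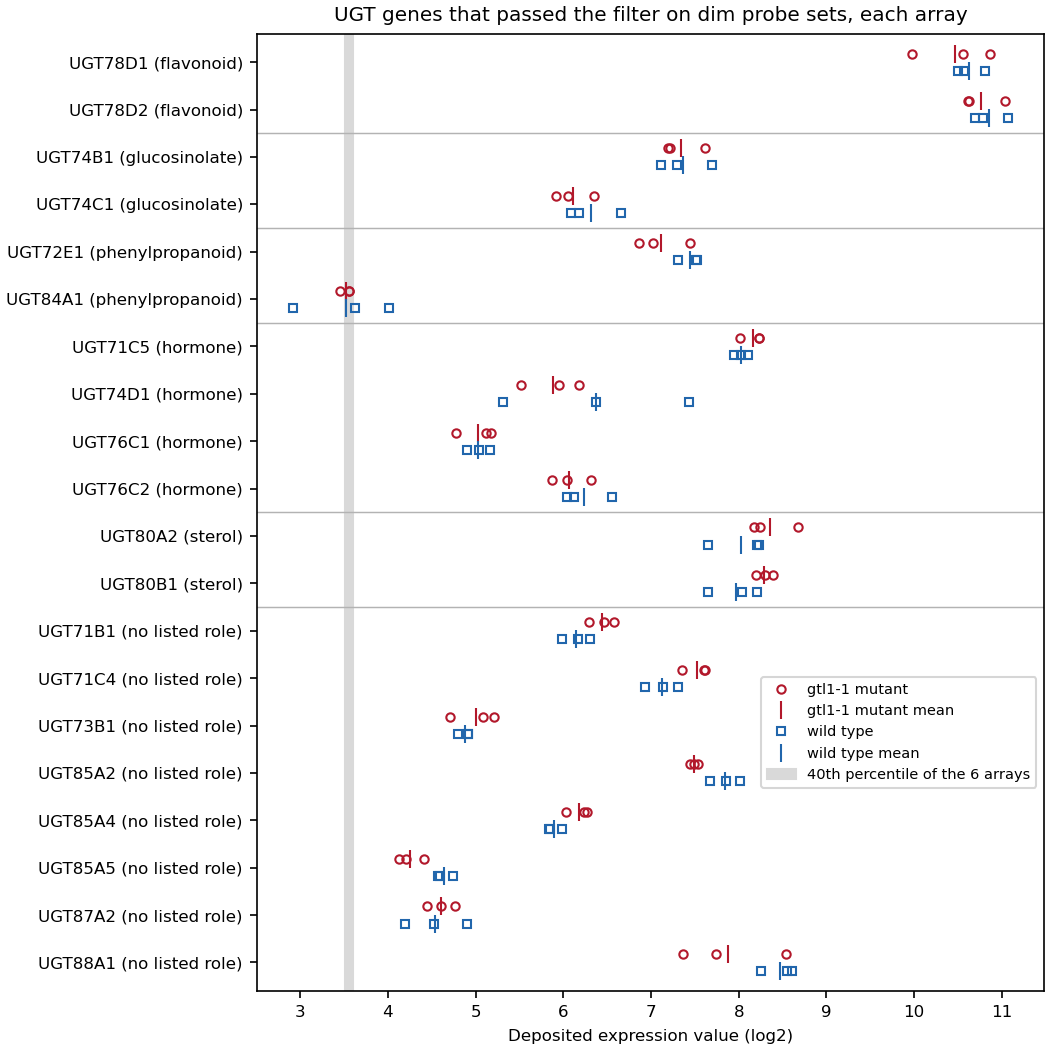
Log2 value of each tested UGT gene on each array. Circles are the 3 gtl1-1 mutant arrays and squares, drawn below them, the 3 wild-type arrays, vertical ticks are genotype means, and grey horizontal lines separate the role groups. Circles and squares separate at UGT71C4, UGT85A2, UGT85A4 and UGT85A5 and overlap at the other 16 genes.

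The intervals of these differences show how large a change the arrays could have missed. For 18 of the 20 genes the 95% interval of the limma fit, not adjusted for the number of genes, lay within 2-fold in both directions, and for 6 of them within 1.5-fold. The 2 genes with wider intervals were UGT74D1 and UGT88A1. The standard deviation between arrays of a genotype, pooled over both, had a median of 0.23 log2 units over the UGT genes and 0.21 over all tested probe sets, and ran from 0.11 to 0.79.

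**Figure D3:**
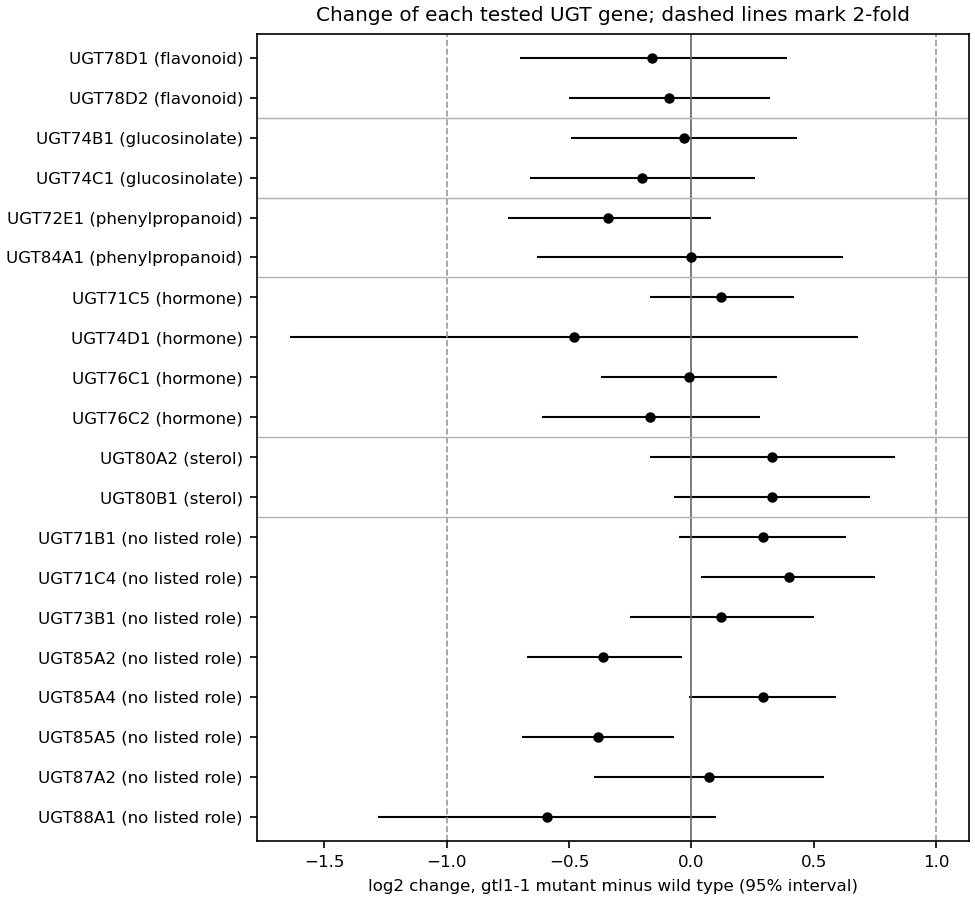
Log2 change, gtl1-1 mutant minus wild type, of each tested UGT gene (point) with its 95% interval from limma (bar), n = 3 arrays per genotype. Only UGT71C4, UGT85A2 and UGT85A5 have intervals that leave out 0, and only UGT74D1 and UGT88A1 have intervals that cross a dashed line at 2-fold.

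The 2 tested UGTs that decorate flavonols were bright in both genotypes and did not separate them. UGT78D1, which adds rhamnose to flavonols, read 10.86, 9.98 and 10.56 in mutant trichomes, against 10.50, 10.81 and 10.57 in wild-type trichomes. The mutant arrays hold both the highest and the lowest of these values. UGT78D2, which adds glucose to flavonols and anthocyanidins, read 11.04, 10.62 and 10.61 in mutant trichomes, against 11.07, 10.79 and 10.69 in wild-type trichomes. In both genotypes the array numbered 1 was the highest for UGT78D2 and the other two lay close together. The 95% interval of the log2 change was -0.70 to 0.39 for UGT78D1 and -0.50 to 0.32 for UGT78D2. UGT78D3, which lies beside UGT78D2 in the genome with 1 other gene between them, stood at 2.14 on all 6 arrays.

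Few other flavonoid genes could be read. Of 21 listed genes of flavonoid synthesis and its regulators, 3 had a probe set that the annotation used here assigns to them alone. That annotation leaves 8730 probe sets without a name, so a gene not read here may still be on the array. CHIL, a chalcone isomerase-like protein that raises flavonoid output, averaged 8.37 ± 0.31 in mutant and 8.34 ± 0.68 in wild-type trichomes (SD, n = 3 each). DFR and BAN, of the branch to anthocyanins and proanthocyanidins, were at 2.14 and 2.15 on every array. None of these was called, and CHIL was the only one tested.

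The glucosinolate UGTs also overlapped between genotypes. UGT74B1, which adds the glucose of the glucosinolate core, read 7.22, 7.61 and 7.19 in mutant trichomes and 7.11, 7.30 and 7.70 in wild-type trichomes. UGT74C1, thought to act on glucosinolates made from methionine, read 5.92, 6.35 and 6.05 in mutant trichomes and 6.18, 6.66 and 6.09 in wild-type trichomes. For UGT74C1 the array numbered 2 was the highest in each genotype. The 95% interval of the log2 change was -0.49 to 0.43 for UGT74B1 and -0.66 to 0.26 for UGT74C1. Of 36 other listed glucosinolate genes, 3 had a probe set that the annotation assigns to them alone. GSTU20, a glutathione transferase whose expression follows the methionine branch, averaged 7.09 ± 0.45 in mutant and 7.29 ± 0.79 in wild-type trichomes (SD, n = 3 each), while BCAT4, which starts that branch, and AOP3, which modifies the side chain, lay within 0.5 log2 units of the floor. None of these was called.

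Among UGTs of phenylpropanoids, UGT72E1, which glucosylates coniferyl and sinapyl aldehydes, read 6.86, 7.02 and 7.44 in mutant trichomes and 7.31, 7.51 and 7.52 in wild-type trichomes. Its mutant values reached into the wild-type range through replicate 3 alone, and its log2 change was -0.34 ± 0.18 (SE; limma adjusted p = 0.428). It was -0.21 without gtl1-1 mutant replicate 1 and -0.50 without gtl1-1 mutant replicate 3 (limma adjusted p = 0.64 and 0.312). UGT84A1, which makes glucose esters of hydroxycinnamic acids, read 3.56, 3.56 and 3.45 in mutant and 3.63, 4.01 and 2.92 in wild-type trichomes. These values straddle the 40th percentile, so UGT84A1 marks the edge of the filter. UGT84A3 and UGT84A4, beside it in the genome, lay between 2.14 and 2.45. UGT84A2, known as BRIGHT TRICHOMES 1 for the fluorescence of trichomes that lack sinapate esters, was not analysed here. Of 17 listed phenylpropanoid genes, 2 were measured, and neither was called: HCT, an acyltransferase on the way to lignin, had a log2 change of -0.13 ± 0.18 and ALDH2C4, which makes ferulic and sinapic acid, one of 0.11 ± 0.14 (SE).

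The hormone UGTs that could be tested were those for abscisic acid, auxin and cytokinin. UGT71C5, which glucosylates abscisic acid, read 8.01, 8.23 and 8.23 in mutant trichomes and 8.03, 7.95 and 8.11 in wild-type trichomes. Its values were among the steadiest of the UGT genes, with a pooled standard deviation of 0.11, and the 95% interval of its log2 change was -0.17 to 0.42. UGT76C2 and UGT76C1, which attach glucose to the ring nitrogen of cytokinins, are neighbouring genes. UGT76C2 read 5.87, 6.31 and 6.04 in mutant trichomes, against 6.12, 6.56 and 6.04 in wild-type trichomes, and UGT76C1 averaged 5.03 ± 0.21 in mutant and 5.03 ± 0.13 in wild-type trichomes (SD, n = 3 each).

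UGT74D1, which glucosylates auxins, was the most variable UGT gene. It read 6.18, 5.95 and 5.52 in mutant trichomes and 6.37, 7.43 and 5.31 in wild-type trichomes. The wild-type arrays span the whole range, with replicate 2 the highest and replicate 3 the lowest of all 6. Its pooled standard deviation of 0.79 exceeded that of nearly all tested probe sets (percentile 98.3), and the 95% interval of its log2 change of -0.48 ran from -1.64 to 0.68. Without wild type replicate 3 the change was -1.01, and without wild type replicate 2 it was 0.05, so it has no settled direction.

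Sterol glucosyltransferases put glucose on membrane sterols. UGT80B1, known as TRANSPARENT TESTA 15 for its seed coat phenotype, read 8.20, 8.30 and 8.39 in mutant trichomes and 8.04, 7.65 and 8.21 in wild-type trichomes. UGT80A2, the other member of the pair, read 8.24, 8.17 and 8.67 in mutant trichomes and 8.23, 7.65 and 8.21 in wild-type trichomes. At both genes wild type replicate 2 was the lowest value and the other 5 arrays lay above 8.0. The log2 change was 0.33 ± 0.17 for UGT80B1 and 0.33 ± 0.21 for UGT80A2 (SE; limma adjusted p = 0.426 and 0.513). Without wild type replicate 2 these changes were 0.17 and 0.14, and that of UGT80A2 was 0.17 without gtl1-1 mutant replicate 3.

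The 4 UGT genes whose genotypes did not overlap belonged to the UGT85A and UGT71C subfamilies, and none of the 4 is in a role list. UGT85A5 read 4.21, 4.13 and 4.41 in mutant trichomes, against 4.57, 4.74 and 4.59 in wild-type trichomes, a log2 change of -0.38 ± 0.13 (SE), or 1.30-fold lower in the mutant. It had the smallest p of the UGT genes (limma adjusted p = 0.252). UGT85A2 read 7.44, 7.49 and 7.53 in mutant trichomes, against 7.67, 7.85 and 8.01 in wild-type trichomes, a log2 change of -0.36 ± 0.13 (SE; limma adjusted p = 0.282). Both genes thus lay lower on every mutant array than on any wild-type array, by about the same amount, and neither was called.

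UGT85A2 and UGT85A5 are direct neighbours. Among the chosen genes they stand in a row of 4 UGT85A genes, in the order UGT85A7, UGT85A2, UGT85A5 and UGT85A3. The other chosen genes of that row were not tested: UGT85A7 lay between 2.96 and 3.13 over the 6 arrays and UGT85A3 at 2.14 on each. How far the probe sets of these related genes bind each other's transcripts was not tested. UGT85A4, which lies elsewhere in the genome, went the other way. It read 6.27, 6.03 and 6.23 in mutant trichomes, against 5.85, 5.99 and 5.84 in wild-type trichomes, a log2 change of 0.29 ± 0.13 (SE; limma adjusted p = 0.357). All mutant values of UGT85A4 were above the wild-type values, by as little as the gap between 6.03 and 5.99.

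UGT71C4 had the largest positive change among the UGT genes. It read 7.60, 7.35 and 7.61 in mutant trichomes, against 7.31, 6.93 and 7.14 in wild-type trichomes, a log2 change of 0.40 ± 0.15 (SE), or 1.32-fold higher in the mutant. The lowest mutant value, 7.35, lay just above the highest wild-type value, 7.31, and the gene was not called (limma adjusted p = 0.288). It sits between UGT71C5 and UGT71C3 in the genome. UGT71C5 had a log2 change of 0.12 ± 0.13 (SE), and UGT71C3 lay between 2.19 and 2.32 over the 6 arrays.

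**Figure D4:**
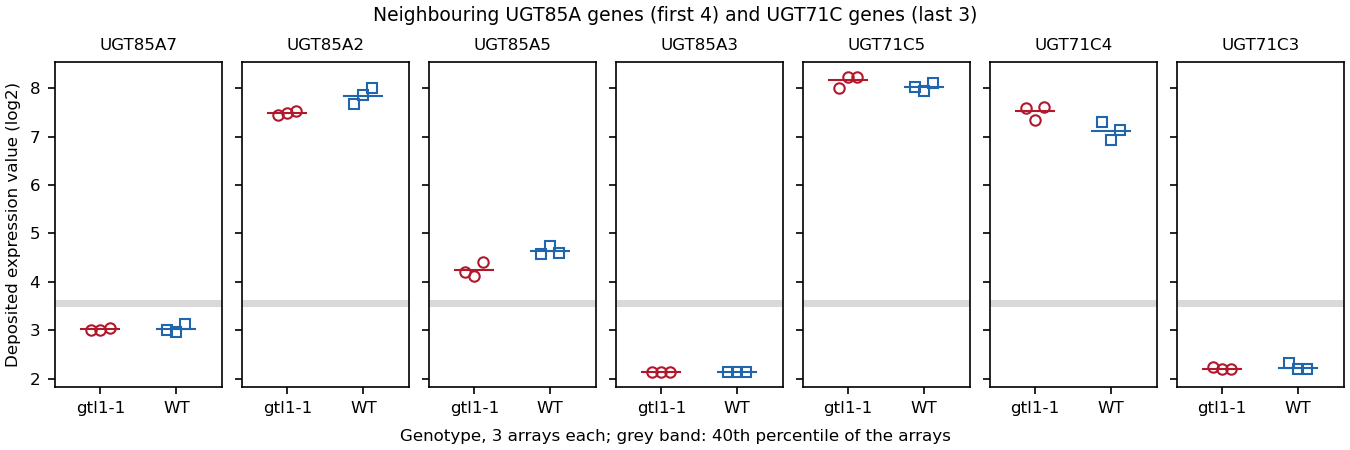
Log2 values of the 4 neighbouring UGT85A genes and the 3 neighbouring UGT71C genes among the chosen genes, in genome order. The gtl1-1 mutant arrays (circles) are left of wild-type arrays (squares), with replicates 1 to 3 from left to right. Horizontal lines are means and the grey band spans the 40th percentiles of the arrays. UGT85A2 and UGT85A5 lie lower and UGT71C4 higher on all 3 mutant arrays than on any wild-type array, while UGT85A7, UGT85A3 and UGT71C3 lie below the band.

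Many UGT genes stand beside each other in this way. With up to 3 gene steps between members, 31 of the 51 lay in 13 clusters of neighbours, and 9 of these 31 were tested. Clusters were counted among the chosen genes only, so UGT genes outside the choice are left out and a row in the genome can be longer. In 7 clusters no gene was tested, and in 5 some were and some were not. Besides the UGT85A and UGT71C rows, the UGT76C pair was the only cluster with more than 1 tested gene.

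The remaining tested UGT genes have no role in the lists. UGT71B1 read 6.29, 6.46 and 6.58 in mutant trichomes and 6.17, 6.30 and 5.99 in wild-type trichomes. Its lowest mutant value and its highest wild-type value nearly coincide. Its log2 change was 0.29 ± 0.14 (SE; limma adjusted p = 0.398). With UGT71C4 and UGT71C5 it makes 3 tested UGT71 genes, all with positive changes, from 0.12 to 0.40, and 0 of them called. Of all tested probe sets 48.8% had a positive change, and the 3 tested UGT74 genes all had negative ones, from -0.48 to -0.03. UGT73B1 read 4.71, 5.21 and 5.08 in mutant trichomes and 4.91, 4.91 and 4.80 in wild-type trichomes, and UGT87A2, known for an effect on flowering time, averaged 4.61 ± 0.16 in mutant and 4.54 ± 0.35 in wild-type trichomes (SD, n = 3 each).

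UGT88A1 had the largest change of any UGT gene in the fit of all 6 arrays. It read 8.54, 7.74 and 7.36 in mutant trichomes, against 8.61, 8.55 and 8.25 in wild-type trichomes. Mutant replicate 1 lay among the wild-type values and the other two mutant arrays below all of them. The log2 change was -0.59 ± 0.29 (SE; limma adjusted p = 0.404), with a 95% interval from -1.28 to 0.10. Without gtl1-1 mutant replicate 1 it was -0.92 (limma adjusted p = 0.131), and without gtl1-1 mutant replicate 3 it was -0.33. Between arrays of the same number, mutant minus wild type, it differed by -0.08, -0.80 and -0.89. With the block on the replicate number its unadjusted limma p fell under 0.05, and it was not called (limma adjusted p = 0.252). That made 4 such UGT genes in place of 3. The share of all tested probe sets at that p was not taken in the block fit, so the count of 4 has no background beside it. The difference had one sign at all 3 numbers at 11 of the 20 UGT genes (5 higher and 6 lower in the mutant), and at 40.5% of all tested probe sets (20.9% higher and 19.6% lower). Besides UGT88A1 these were the 4 genes without overlap and UGT71B1, UGT72E1, UGT74C1, UGT78D2, UGT80A2 and UGT80B1.

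**Figure D5:**
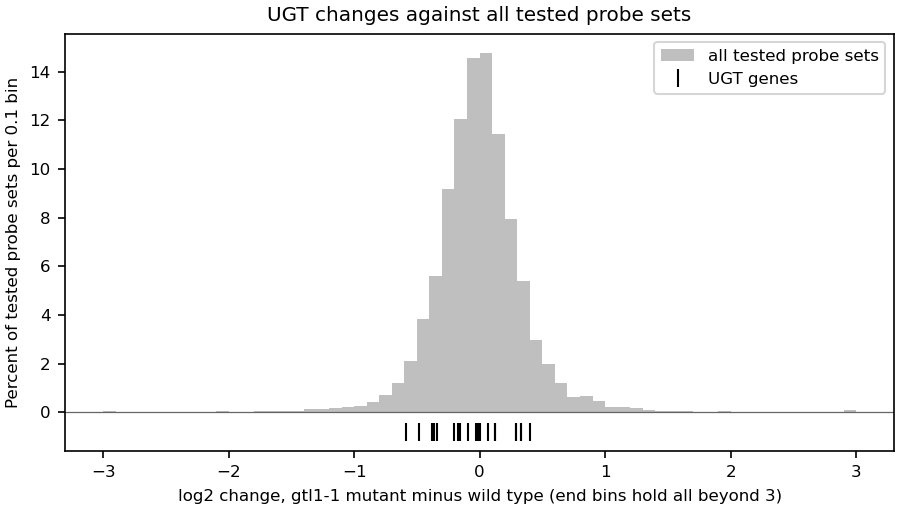
Histogram of the log2 change, gtl1-1 mutant minus wild type, over all 13682 tested probe sets (grey, percent per bin of 0.1), with the 20 tested UGT genes as ticks beneath. The UGT changes run from -0.59 (UGT88A1) to 0.40 (UGT71C4). By size these 2 changes stand at percentiles 91.6 and 80.7 of all tested probe sets.

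On each array between 9 and 12 of the 20 UGT genes lay above their own mean. The lowest and highest values of a genotype were less evenly spread over its arrays, and this spread was not tested. Mutant replicate 1 gave the lowest of the 3 mutant values at 9 genes, against 34.1% of all tested probe sets. Wild type replicate 3 gave the lowest of the 3 wild-type values at 11 of the 20 genes, where it did so at 36.9% of all tested probe sets, and wild type replicate 2 the highest at 10, against 27.9% of all tested probe sets. The median deviation of the 20 genes from their own 6-array means was 0.16 on wild type replicate 2 and -0.12 on wild type replicate 3, and between -0.01 and 0.03 on the mutant arrays. Markers of other leaf cells also differed between arrays. Of 11 listed photosynthesis markers 5 were measured, and 0 of these were called. LHCB4.1 and LHCB4.2, light-harvesting proteins, lay lower on every mutant array than on any wild-type array, with log2 changes of -0.39 ± 0.15 and -0.99 ± 0.26 (SE). Of all tested probe sets 10.1% lay lower in that way. RCA, SBPASE and PRK, of the Calvin cycle, had changes from 0.01 to 0.05. Of 7 listed stomatal genes 3 were measured and 2 tested. SPCH stood at -0.55 and was lower without overlap as well, from 5.38 to 5.78 in mutant and from 5.83 to 6.78 in wild-type trichomes. FMA stood at 0.21 with overlap. The phloem transporter SWEET11, the only measured gene of 4 listed for phloem, stood at 0.54. Of SPCH, FMA and SWEET11, 0 were called. The mean of the 3 measured stomatal genes lay between 4.55 and 5.01 on the mutant arrays and between 4.61 and 5.41 on the wild-type arrays, and SWEET11 between 4.88 and 5.43 on the mutant arrays and between 3.86 and 5.35 on the wild-type arrays. Their part in the UGT values was not tested.

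Of 4 probe sets just outside the choice, 0 were called, where 0.921% of all tested probe sets were. All had positive changes, where 48.8% of all tested probe sets did. GT72B1, also called UGT72B1, which conjugates chlorinated phenols and has no UGT symbol or matching description in the tables, read 6.82, 6.33 and 6.40 in mutant and 6.02, 5.76 and 6.38 in wild-type trichomes, a log2 change of 0.47 ± 0.21 (SE; limma adjusted p = 0.355). A probe set shared by UGT73B2 and UGT73B3 read from 3.56 to 4.09 in mutant and from 3.50 to 3.95 in wild-type trichomes (log2 change 0.02). One that names UGT89B1 and a neighbouring gene read from 6.49 to 6.65 in mutant and from 6.32 to 6.67 in wild-type trichomes (log2 change 0.03), and one that names UGT71D1 and another gene read from 8.50 to 9.12 in mutant and from 8.08 to 8.63 in wild-type trichomes, a change of 0.41 ± 0.21 (SE; limma adjusted p = 0.423). The changes of GT72B1 and of the UGT71D1 probe set exceed the highest among the chosen genes (0.40). Of 30 listed genes that make the UDP-sugars used by these enzymes, the annotation assigned a probe set of its own to USP only. USP, a pyrophosphorylase for several sugars, averaged 10.13 ± 0.26 in mutant and 10.04 ± 0.21 in wild-type trichomes (SD, n = 3 each; not called).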

How the data were processed

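The deposited table holds log2 values of 22810 probe sets, which the authors computed with GCRMA, per the submitters' processing notes (version not given in the sources used here). The log2 scale follows from the range of the values. The 64 control probe sets were left out and nothing was normalised again. Groups and replicate numbers came from the labels. Probe sets above the 40th percentile of their array on at least 3 arrays (13682) were fitted by genotype with limma 3.58.1 in R 4.3.3 (lmFit, eBayes, two-sided), with Benjamini-Hochberg adjustment over all of them. The fit was tested on simulated data with planted changes of 1 log2 unit or more and no floor. That test does not cover changes as small as those of the UGT genes. Names came from the platform annotation, in which 13513 probe sets name 1 gene, 503 several and 8730 none here, and from a reference gene table (TAIR10.1), used for names and gene order only, so no coordinates are given. The brightest probe set stood for a gene. Arrays have no depth, and 3 arrays per genotype limit the precision.

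Values on every array are given for UGT78D1, UGT78D2, UGT74B1, UGT74C1 and the 14 tested UGT genes with the smallest p, and UGT84A1, GT72B1 and the shared probe sets were added after their values were seen. The genes, lists and tests were chosen with earlier results of these data known.

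The genotypes share replicate numbers. Deviations from the genotype means correlated at 0.127, 0.275 and 0.118 between arrays numbered 1, 2 and 3, each over 0.1. By that criterion, and from these data alone, the numbers would count as pairs, but the labels do not say what they mark. Deviations cancel out over the arrays of a genotype, so these correlations depend on each other and cannot settle whether the arrays are paired. The errors, intervals and p-values given are from the fit without the block unless the block is named. Among arrays of unlike number, mutant replicate 1 and wild type replicate 3 correlated at 0.0873. The other pairs of unlike number were all negative, from -0.212 to -0.0388. The evidence for pairs is weak, since these correlations are small and depend on each other. Alternatives were the filter, normalisation, variance model, array weights, the replicate block, averaging probe sets by gene and leaving out each array.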

Additional observations from a re-analysis of the deposited data

How the results depend on the processing

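The count of UGT genes called stayed at 0 under all 14 alternatives, and the lowest limma adjusted p of any UGT gene in these fits was 0.131. The number of probe sets called over the array was 126, and it was 8 with no filter, 68 with the replicate block, and between 31 and 81 with 1 array left out. The number of UGT genes at an unadjusted p under 0.05 was 3, and between 0 (without wild type replicate 2) and 3 with 1 array left out, with 1 without gtl1-1 mutant replicate 1. The shares of all tested probe sets at that p were not taken in those fits, so these counts cannot be set against a background. The median change of the UGT genes lay between -0.14 and 0.05 over the alternatives, with a change of sign around 0. Of 17 named genes, 13 kept their sign in all fits that tested them. UGT74B1 (-0.03) stood at 0.10 with array weights, at 0.03 or 0.05 without gtl1-1 mutant replicate 1 or 3, and at 0.13 without wild type replicate 3. With 1 array left out, UGT78D1 (-0.16) ran from -0.35 to 0.08 (without gtl1-1 mutant replicate 2), UGT78D2 (-0.09) from -0.23 to 0.02 (without wild type replicate 1), and UGT74D1 (-0.48) from -1.01 to 0.05 (without wild type replicate 2). The replicate block changed no call of a UGT gene. UGT85A5 had an unadjusted p under 0.05 in 3, UGT71C4 in 2 and UGT85A2 in 1 of the 6 fits with 5 arrays. Each UGT gene had 1 probe set, and averaging the probe sets of other genes moved the filter so that 19 UGT genes were tested, with a median change of -0.03 in place of -0.02. With few arrays and a floor at 2.14, small differences at the 31 dim UGT genes could be missed.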
